A study of Homo sapiens with 9 samples.

Results

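The genes described here are the subunits and regulators of the hypoxia-inducible factors (HIF) together with known HIF targets outside glycolysis. These 32 genes were listed by name. Earlier results of these data were known by then, so the list may not be independent of how the genes moved. A gene was measured where the array annotation gave a probe set to that symbol alone, which held for 28 of the 32 and for 22392 genes in all. EGLN2, BNIP3 and AK4 matched only probe sets that carry several symbols, and CA9 matched none, so these 4 were not analysed here. All 28 are described below, whatever their signal.

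A HIF is a pair of proteins, an oxygen-sensitive alpha subunit (encoded by HIF1A, EPAS1 or HIF3A) and the stable partner ARNT. In well-oxygenated cells the EGLN prolyl hydroxylases mark the alpha subunit for the VHL ubiquitin ligase, which leads to its destruction, and a further hydroxylase, HIF1AN, blocks the binding of coactivators. When oxygen is short the alpha subunit escapes, enters the nucleus and binds short DNA elements near its targets. The control is thus largely at the level of protein, which arrays do not measure. The targets cover blood vessel growth, acid balance, collagen crosslinking, mitophagy and the demethylation of histones, besides the glycolytic enzymes and LDHA.

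MDA-MB-231, an established triple-negative breast cancer line, was profiled on 9 GeneChip Human Gene 2.1 ST arrays to ask how the transcriptome responds to GNE-140, an inhibitor of lactate dehydrogenases A, B and C. GNE-140 at 50 µM for 24 h was given in 4 arrays, 2 of set 1 (1A and 1B) and 2 of set 2 (2A and 2B), and 5 arrays were controls, 3 of set 1 (1A, 1B and 1C) and 2 of set 2 (2A and 2B). All cultures grew in high-glucose medium with serum under air with added CO2, and no hypoxic arm is among the arrays used here. The labels do not say whether arrays of a group came from separate flasks, and p-values here reflect no more than the scatter among these arrays, which may be technical. GNE-140 was dissolved in DMSO while the set 1 controls are labelled as untreated, and no label names a solvent control, so inhibitor and solvent cannot be told apart. Titles and treatment labels were used to assign the arrays, but for 6 of them (the 4 of GNE-140 and the 2 set 2 controls) the source name gives a Boswellia extract or a boswellic acid instead. The study's text also gives other numbers of arrays per set than the labels do. Neither conflict was resolved, and every comparison below rests on the titles.

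The values are log2 signals, on which a difference of 1 is a doubling. The sets lay on different scales, with array medians of 1.32 to 1.36 in set 1 and 2.27 to 2.31 in set 2, so each GNE-140 array was read against the controls of its own set. The defining markers of the line, VIM, CD44, EGFR, CAV1, AXL, ZEB1 and MSN, lay between the percentiles 80.9 and 99.6 of their set, and the luminal genes ESR1, PGR and FOXA1 between 16.2 and 42.4. The further luminal and epithelial markers CDH1, GATA3 and KRT8 lay between 48.7 and 75.2, and ERBB2 had no probe set of its symbol alone. In set 1 many probe sets carried exactly the same value on 3 or more of the 5 arrays, which is called repeated values below. This held for 11 of the 28 genes (39.3%) and for 48.8% of all genes, and for none of the 28 in set 2.

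STC1 and BHLHE40 rose with GNE-140, and none of the 28 genes fell. STC1 encodes stanniocalcin 1, a secreted glycoprotein hormone of calcium and phosphate balance, and BHLHE40 (DEC1) encodes a transcriptional repressor of the circadian clock. Among the 22392 genes 0.679% passed the test in the upward direction and 1.02% in the downward direction, where passing means an adjusted p under 0.1 in limma with set as a block, adjusted over all 53617 probe sets. Over the probe sets themselves the shares were 0.433% and 0.532%. No HIF subunit, no hydroxylase, not VHL and not VEGFA passed. At shares this low, 0 falls among 28 genes and 0 calls in these smaller groups say little of the genes.

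The signal of STC1 was 6.99 and 7.12 in the GNE-140 arrays of set 1, against 6.14, 6.41 and 5.96 in its controls. In set 2 it was 7.82 and 7.80 with GNE-140, against 7.32 and 7.11 in controls. Every GNE-140 array thus lay above every control of its set. The log2 fold change was 0.75 ± 0.11 (SE, 4 GNE-140 and 5 control arrays), a fold of 1.68 with a 95% interval of 1.41 to 2.01 (adjusted p = 0.032), and it was 0.88 in set 1 and 0.60 in set 2. The call did not hold without GNE-140 2A, without GNE-140 2B and without control 2B, with an adjusted p of up to 0.119 and a log2 fold change that stayed between 0.69 and 0.82 over the 9 omissions.

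For BHLHE40 the GNE-140 arrays of set 1 gave 5.68 and 5.47, against 4.94, 5.05 and 4.89 in controls. Set 2 gave 6.87 and 6.99 with GNE-140, against 6.43 and 6.18 in controls. Here too the groups did not overlap in either set, and the difference was of like size in both, 0.61 in set 1 and 0.63 in set 2. The log2 fold change was 0.62 ± 0.08 (SE, 4 GNE-140 and 5 control arrays), a fold of 1.54 (1.35 to 1.75, adjusted p = 0.023). It passed with each of the 9 arrays left out in turn (adjusted p 0.049 to 0.094).

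These were the 2 of the 28 genes whose GNE-140 arrays lay above the controls in both sets, as 3.85% of all genes did. Neither reached the stricter call, which asks for a fold over 2 in a shared direction and was met by 0 of the 28 genes and 0.326% of all genes. In a model without the set neither passed, and no probe set of the array did. The signals come from the pooled RNA of a culture, so more RNA per cell and more cells with the RNA cannot be told apart.

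**Figure D1:**
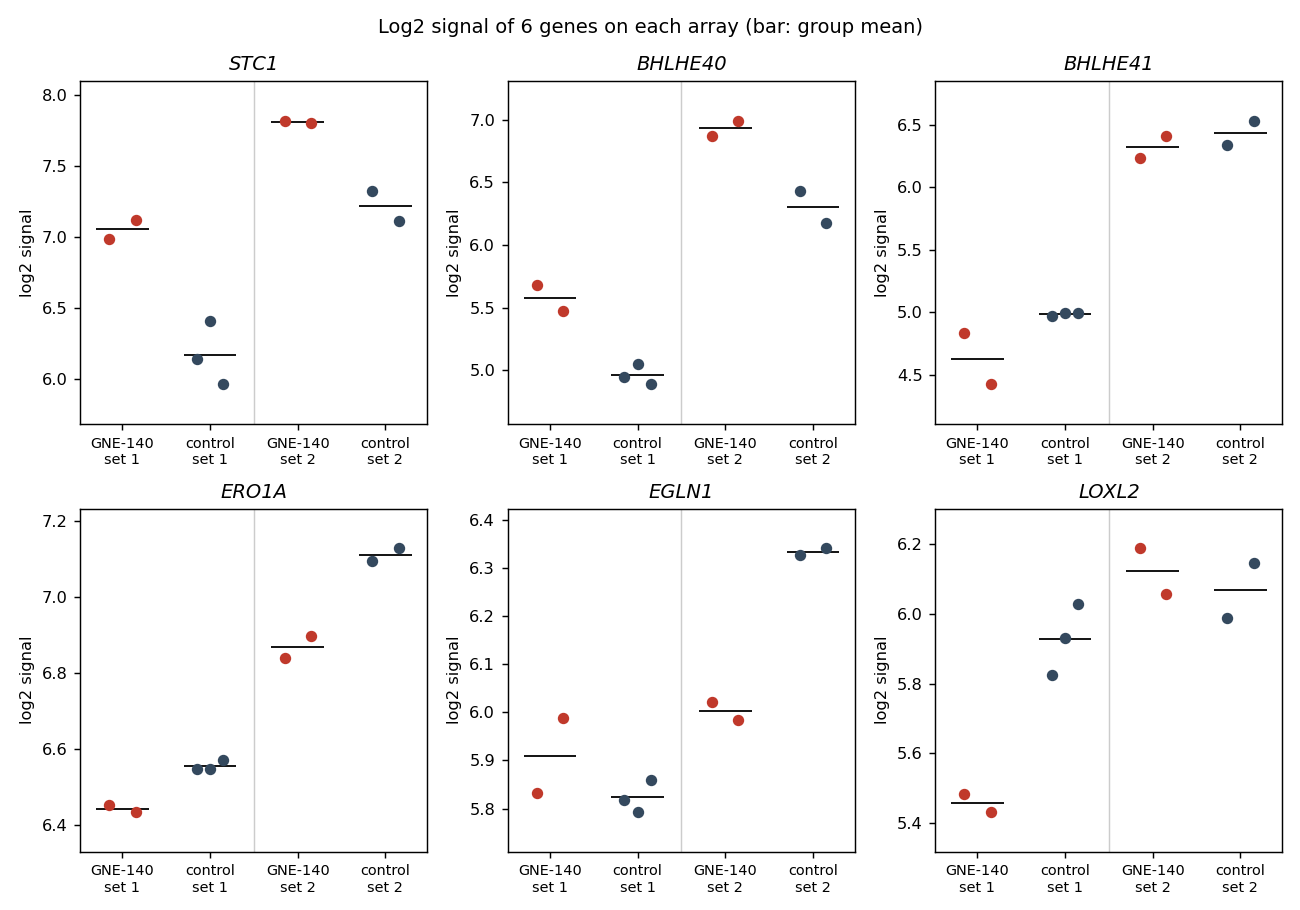
Log2 signal (vertical axis, a separate scale in each panel) of 6 genes on each array, with GNE-140 in red, controls in dark blue and the group mean as a bar. In STC1 and BHLHE40 the GNE-140 points lie above the controls of both sets, in ERO1A below them in both, while BHLHE41 and LOXL2 are separated in set 1 alone and EGLN1 in set 2 alone.

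A further 3 genes had an unadjusted p under 0.05 but did not pass, all with lower values in GNE-140 arrays, which brings the count at that level to 5 of 28, beside 13.7% of all genes. ERO1A encodes the oxidase that recharges protein disulfide isomerase in the endoplasmic reticulum. Its signal was 6.45 and 6.43 in GNE-140 arrays of set 1, against 6.55, 6.55 and 6.57 in controls, and 6.84 and 6.90 in those of set 2, against 7.09 and 7.13 in controls. ERO1A was the 1 gene of the 28 with all GNE-140 arrays below all controls in both sets, which held for 3.28% of all genes, at a log2 fold change of -0.17 ± 0.06 (SE, adjusted p = 0.323).

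BHLHE41 (DEC2), the closest relative of BHLHE40 and likewise a repressor within the clock, did not rise with it. Its signal was 4.83 and 4.42 in GNE-140 arrays of set 1, against 4.97, 5.00 and 4.99 in controls. In set 2 it was 6.24 and 6.41 with GNE-140, against 6.34 and 6.53 in controls. The groups were apart in set 1, where GNE-140 1B lay lowest, and overlapped in set 2. Its log2 fold change was -0.25 ± 0.10 (SE, adjusted p = 0.462). In set 1 alone BHLHE41 passed once GNE-140 1A was left out (log2 fold change -0.56, adjusted p = 0.028), a comparison with a single GNE-140 array whose spread is taken from the controls.

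PLOD1, a lysyl hydroxylase that prepares collagen for crosslinking, gave 6.67 and 6.51 in GNE-140 arrays of set 1, against 6.67, 6.86 and 6.70 in controls. In set 2 it gave 7.36 and 7.36 with GNE-140, against 7.53 and 7.48 in controls. The groups shared a value in set 1 and were apart in set 2. PLOD1 had a log2 fold change of -0.15 ± 0.07 (SE, adjusted p = 0.479).

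The promoters of BHLHE40, BHLHE41, ERO1A and PLOD1 are shown because these are genes of the 28 with an unadjusted p under 0.05, and HIF binds a short core, ACGTG or GCGTG, in such regions. Each line holds the 250 bases before the RefSeq start of the gene (GRCh38.p14), 5′ to 3′ on the gene's strand, with every core on either strand in capitals. The regions are chr3:4979187-4979436 (plus strand) for BHLHE40, chr12:26125038-26125287 (minus) for BHLHE41, chr14:52695559-52695808 (minus) for ERO1A and chr1:11934467-11934716 (plus) for PLOD1.
BHLHE40: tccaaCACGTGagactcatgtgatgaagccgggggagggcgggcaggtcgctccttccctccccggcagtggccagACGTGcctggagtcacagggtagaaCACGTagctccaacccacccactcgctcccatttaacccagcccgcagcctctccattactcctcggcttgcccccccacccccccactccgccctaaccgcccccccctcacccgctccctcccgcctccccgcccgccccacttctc
BHLHE41: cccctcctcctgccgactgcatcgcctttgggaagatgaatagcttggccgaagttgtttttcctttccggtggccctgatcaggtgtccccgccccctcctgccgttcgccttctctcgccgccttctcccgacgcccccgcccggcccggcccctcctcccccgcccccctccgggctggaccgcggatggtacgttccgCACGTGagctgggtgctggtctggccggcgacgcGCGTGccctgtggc
ERO1A: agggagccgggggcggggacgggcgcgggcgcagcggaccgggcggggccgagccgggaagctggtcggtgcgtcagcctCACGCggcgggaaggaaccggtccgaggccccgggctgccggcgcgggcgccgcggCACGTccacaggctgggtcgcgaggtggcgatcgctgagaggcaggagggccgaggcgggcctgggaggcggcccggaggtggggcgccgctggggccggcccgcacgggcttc
PLOD1: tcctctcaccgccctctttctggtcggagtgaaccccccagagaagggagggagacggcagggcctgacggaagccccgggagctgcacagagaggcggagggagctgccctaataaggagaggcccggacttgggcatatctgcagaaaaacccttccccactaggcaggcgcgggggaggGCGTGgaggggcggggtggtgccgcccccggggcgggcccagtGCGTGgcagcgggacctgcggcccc

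BHLHE40 held 4 cores, the farthest starting 245 bases before the start, BHLHE41 held 3, and ERO1A and PLOD1 held 2 each. In BHLHE40 and in BHLHE41 a pair of these cores overlaps as the palindrome CACGTG, which reads as a core on both strands and is also the E-box that the BHLHE40 and BHLHE41 proteins bind. Of the 28 genes 22 matched a promoter in the table (BNIP3L, LOXL2, NDRG1, STC1, VEGFA and VHL did not), and 17 of the 22 (77.3%) held at least 1 core, beside 50.0% of the 15487 promoters of genes with 1 symbol on the array and 43.1% of all 27305. At least 2 cores were found in 10 of 22 (45.5%, beside 23.7% and 19.5%), and the palindrome in 4 of 22 (18.2%, beside 7.54% and 6.49%). A palindrome counts as 2 cores, so 1 such site is enough for a count of 2. The genes were listed partly as known HIF targets, so these shares also reflect how the list was made. BHLHE40, which rose, thus held cores, and so did BHLHE41, ERO1A and PLOD1 and, with 4 each, LOX and KDM4B, none of which passed the test. A match of letters is not a bound site.

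The HIF subunits themselves did not pass. HIF1A, the main alpha subunit, gave 8.90 and 8.83 in GNE-140 arrays of set 1, against 8.82, 8.83 and 8.79 in controls, and 9.71 and 9.78 in those of set 2, against 9.61 and 9.64 in controls. The groups overlapped in set 1 and were apart by a small margin in set 2. HIF1A had a log2 fold change of 0.08, with a 95% interval of -0.04 to 0.21. These values are of the brighter of its 2 probe sets, and the mean of both gave 0.13 ± 0.10 (SE, limma adjusted p = 0.671).

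EPAS1, the alpha subunit also called HIF-2 alpha, gave 4.45 and 4.45 with GNE-140 in set 1, against 4.45, 4.60 and 4.45 in controls, and 5.94 and 5.56 with GNE-140 in set 2, against 5.57 and 5.58 in controls. A single array, GNE-140 2A, stood high, and 4 of the 5 arrays of set 1 carried the same value. The log2 fold change of 0.05 (-0.16 to 0.27) turned to -0.04 without that array.

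ARNT, the common partner, gave 5.19 and 5.07 with GNE-140 in set 1, against 5.08, 5.20 and 4.98 in controls, and 6.26 and 6.25 with GNE-140 in set 2, against 6.20 and 6.20 in controls. Its groups overlapped in set 1 and were apart by a small margin in set 2, and the log2 fold change was 0.05 (-0.10 to 0.20). HIF3A, whose splice forms can restrain the other alpha subunits, was dim, below the median probe set of both sets, and sat at 1.20 on all 5 arrays of set 1, so only set 2 could show a difference (log2 fold change 0.02).

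Of the hydroxylases, EGLN1 (PHD2), which does most of the prolyl hydroxylation of HIF-1 alpha in normal oxygen, had a higher mean with GNE-140 in set 1 and a lower one in set 2. In set 1 it gave 5.83 and 5.99 with GNE-140, against 5.82, 5.79 and 5.86 in controls, and in set 2 it gave 6.02 and 5.98 with GNE-140, against 6.33 and 6.34 in controls. The groups overlapped in set 1, and in set 2 the GNE-140 arrays were lower by more than the spread of either group. The log2 fold change was -0.10 (-0.31 to 0.11, adjusted p = 0.731).

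EGLN3 (PHD3), itself a HIF target in many cells, gave 1.75 and 2.06 with GNE-140 in set 1, against 1.98, 1.75 and 1.73 in controls, and 2.76 and 2.63 with GNE-140 in set 2, against 2.98 and 2.84 in controls. It was dim (percentiles 62.8 and 60.7 of the sets), with groups that overlapped in set 1 and were apart in set 2, and a log2 fold change of -0.05 (-0.29 to 0.19).

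VHL, the recognition subunit of the ligase, gave 4.92 and 4.80 with GNE-140 in set 1, against 4.80, 4.71 and 4.79 in controls, and 5.38 and 5.32 with GNE-140 in set 2, against 5.26 and 5.34 in controls. Groups met or overlapped in both sets, and the log2 fold change was 0.07 (-0.06 to 0.21). HIF1AN (FIH) had a log2 fold change of 0.09 (-0.09 to 0.26).

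Among the secreted factors STC1 stood apart from the other 3. VEGFA, the growth factor of blood vessels and the best known HIF target, gave 6.27 and 6.27 with GNE-140 in set 1, against 6.20, 6.30 and 6.27 in controls, and 7.19 and 7.11 with GNE-140 in set 2, against 7.01 and 7.07 in controls. Its groups overlapped in set 1 and were apart in set 2, and the log2 fold change of 0.05 had an interval of -0.08 to 0.18. ADM, the vasodilator adrenomedullin, was at 0.07 (-0.07 to 0.20). STC2, the paralogue of STC1, was at -0.04 (-0.33 to 0.25), was dim in set 1, and its controls in set 2 spread from 2.26 to 2.94.

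**Figure D2:**
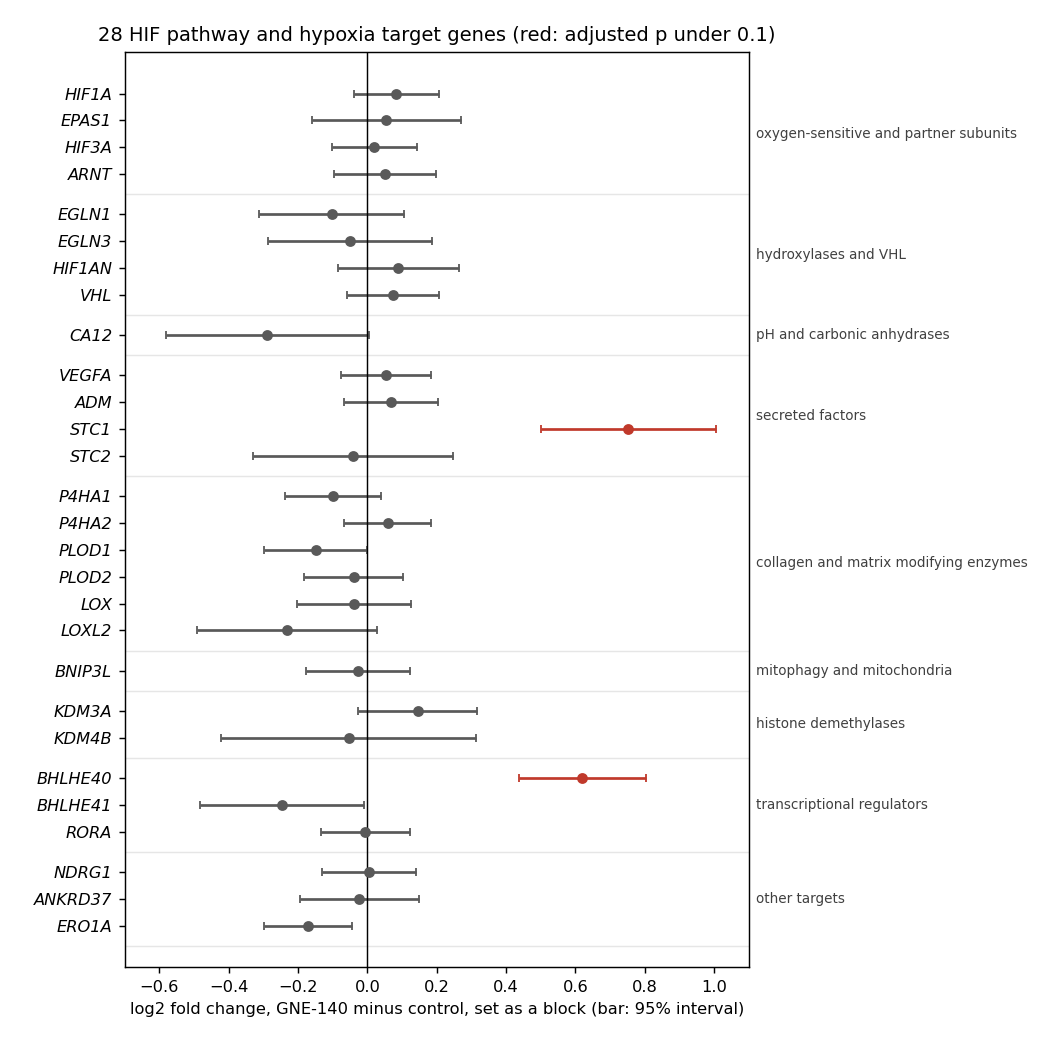
Log2 fold change of GNE-140 minus control (horizontal axis) with its 95% interval for the 28 genes, grouped by role, fitted with set as a block, red where the adjusted p was under 0.1. STC1 (0.75) and BHLHE40 (0.62) lie apart, and the other 26 lie between -0.29 and 0.14.

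The 6 enzymes of collagen and matrix had log2 fold changes from -0.23 to 0.06, 5 of them below 0, and none passed. Besides PLOD1 they are the prolyl 4-hydroxylase subunits P4HA1 (-0.10) and P4HA2 (0.06, with 4.02 on all 5 arrays of set 1), the lysyl hydroxylase PLOD2 (-0.04), and the lysyl oxidases LOX (-0.04) and LOXL2 (-0.23). CA12, a carbonic anhydrase of the cell surface that helps export acid, had a log2 fold change of -0.29 (-0.58 to 0.00, adjusted p = 0.487), which was -0.16 without GNE-140 1B. The mitophagy receptor BNIP3L was at -0.03. The histone demethylases KDM3A and KDM4B were at 0.14 and -0.05, while the nuclear receptor RORA was at -0.01, the stress-responsive gene NDRG1 at 0.00 and the ankyrin repeat gene ANKRD37 at -0.02.

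The 95% interval lay within 0.5 of 0 on the log2 scale in 14 of the 17 genes without repeated values in set 1, the others being STC1, BHLHE40 and CA12. It also did in all 11 genes with repeated values, but values that are the same on several arrays cannot show their spread, so those intervals bound little. Several of the 17 carried the same value on 2 arrays of set 1, so their intervals share this limit in part. For PLOD2 both GNE-140 arrays of set 1 gave 7.85, and for ERO1A controls 1A and 1B both gave 6.55. The 28 log2 fold changes had a median of -0.01 and a median size of 0.06, beside 0.01 and 0.09 over all genes, and 13 were positive and 15 negative. Without the probe sets of repeated values in set 1, 17 of the genes stay, and STC1 and BHLHE40 passed again (adjusted p = 0.028 and 0.024).

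**Figure D3:**
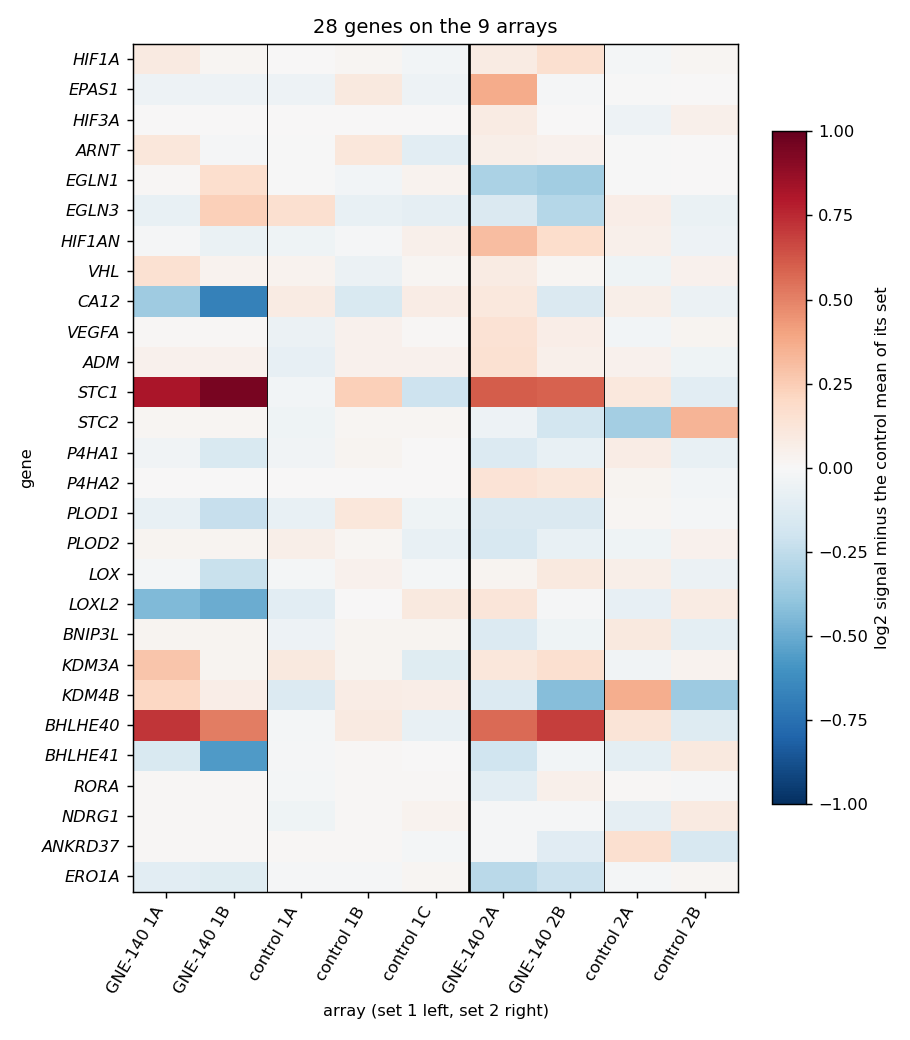
Log2 signal of each of the 28 genes (rows) on each of the 9 arrays (columns), minus the mean of the controls of the same set, on a colour scale from -1 to 1. The rows of STC1 and BHLHE40 are red in all 4 GNE-140 columns, and CA12 and LOXL2 are blue in the GNE-140 columns of set 1.

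Within a single set no gene of the 28 passed limma's test, and neither did any of the 22392 genes (0.00% in set 1 alone and 0.00% in set 2 alone), so this count is no result about the 28. In set 1 alone the lowest adjusted p was 0.589, and 5 genes had an unadjusted p under 0.05 (BHLHE40, LOXL2, ERO1A, STC1 and CA12), beside 5.64% of all genes. In set 2 alone the lowest adjusted p was 0.310, and 3 did (STC1, BHLHE40 and EGLN1), beside 11.0% of all genes. STC1 and BHLHE40 were thus on the list of each set. Both were picked by the fit of the same sets together, so this is no separate replication.

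The response of no gene of the 28 differed between the sets past the threshold in the test of the interaction (lowest adjusted p 0.459), where 0.0179% of all genes passed, a share so low that the count says little of the 28. There 4 had an unadjusted p under 0.05, beside 8.28% of all genes. For EGLN1 the log2 fold change was 0.09 in set 1 and -0.33 in set 2, and for HIF1AN -0.04 and 0.24. LOXL2, a lysyl oxidase that also acts on histones, gave 5.48 and 5.43 with GNE-140 in set 1, against 5.82, 5.93 and 6.03 in controls, and 6.19 and 6.06 with GNE-140 in set 2, against 5.99 and 6.15 in controls. The lower signal was thus seen in set 1 (-0.47), while the groups overlapped in set 2 (0.05), with a difference of 0.52 ± 0.14 (SE, set 2 minus set 1, adjusted p = 0.459). CA12 gave 3.43 and 3.11 with GNE-140 in set 1, against 3.86, 3.63 and 3.86 in controls, and 4.53 and 4.28 with GNE-140 in set 2, against 4.49 and 4.37 in controls. It too was lower in set 1 (-0.51) with overlap in set 2 (-0.02).

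Across the 28 genes, set 1 and set 2 differences correlated at r = 0.578 and rho = 0.143. Without STC1 and BHLHE40 the remaining 26 gave r = -0.04 and rho = -0.07, and all 22392 genes gave r = 0.401 and rho = 0.279. The 28 genes thus lay above all genes by r and below them by rho, and the genes left out are those that were high in both sets. The fall in r follows in part from that choice, and no such genes were left out of the 22392. The sets share no array, genes are not independent replicates, and these are descriptions.

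**Figure D4:**
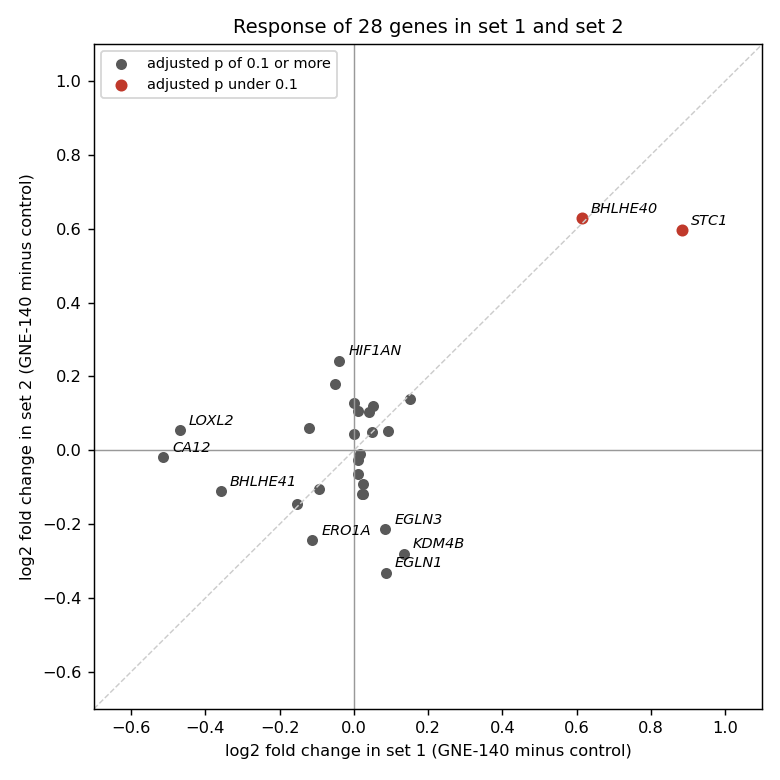
Log2 fold change of GNE-140 minus control in set 1 (horizontal) against set 2 (vertical) for the 28 genes, with the dashed line marking equal values. STC1 (0.88 and 0.60) and BHLHE40 (0.61 and 0.63) lie far up both axes. The 26 that remain without these genes, left out because they were high in both sets, gave r = -0.04.

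Around the 28 genes, 105 of 115 further genes of the pathway were measured, in lists that hold known regulators, relatives and targets. In the same fit 2 of the 105 rose, beside 0.679% of all genes, and 1 fell, beside 1.02%, all in the list of further hypoxia targets outside glycolysis, where 32 of 38 were measured. HMOX1, the haem oxygenase that is also a target of NRF2, rose by 0.76 ± 0.11 (SE, adjusted p = 0.034). It gave 3.55 and 3.82 with GNE-140 in set 1, against 2.99, 3.12 and 2.96 in controls, and 5.51 and 5.06 with GNE-140 in set 2, against 4.50 and 4.33 in controls.

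WSB1, a ubiquitin ligase subunit reported to act on VHL, rose by 0.45 ± 0.07 (SE, adjusted p = 0.044). It gave 6.04 and 6.12 with GNE-140 in set 1, against 5.77, 5.71 and 5.50 in controls, and 6.69 and 6.79 with GNE-140 in set 2, against 6.28 and 6.20 in controls. DDIT4 (REDD1), an inhibitor of mTORC1 that is induced by HIF and by ATF4, fell by 0.76 ± 0.10 (SE, adjusted p = 0.027), opposite to STC1 and BHLHE40. It gave 4.47 and 4.55 with GNE-140 in set 1, against 5.19, 5.55 and 5.32 in controls, and 5.70 and 5.84 with GNE-140 in set 2, against 6.60 and 6.26 in controls. The groups of all 3 genes were apart in both sets, but leaving out 1 array kept the call in 7 of 9 fits for HMOX1, 7 for DDIT4 and 4 for WSB1. All 3 calls were lost without control 2A.

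No glycolytic HIF target passed. Of 21 genes of glucose uptake and glycolysis 20 were measured and none passed in either direction. As 0.679% of all genes rose and 1.02% fell, a count of 0 in so short a list says little. SLC2A1, HK2, PGK1 and PKM had all GNE-140 arrays below all controls in both sets. These are 4 of 20, beside 3.28% of all genes, and 0 of the 20 lay above the controls in both sets. At an unadjusted p under 0.05, which 7.51% of all genes met with higher and 6.16% with lower values, 1 was higher and 3 were lower. Their log2 fold changes were below 0 in 16 of 20, beside 47.7% of all genes, with a median of -0.08, beside 0.01. None passed among 14 regulators of HIF such as the other ligase subunits and the coactivators (5 higher and 0 lower at that unadjusted level), 10 other collagen and matrix enzymes (0 and 1), 16 other JmjC histone demethylases (2 and 0) and 13 other carbonic anhydrases (2 and 0). Counts of 1 or 2 in lists of this size lie close to the shares of all genes. The 5 of 14 regulators with higher values (CITED4, EP300, CREBBP, SIAH2 and USP20) lie above the share of 7.51%. Of these, CREBBP and SIAH2 had groups apart in both sets. For CITED4 and USP20 the groups shared a value in set 1, where USP20 had the same value on 4 arrays. For EP300 the groups overlapped in set 2. Of the 32 further hypoxia targets outside glycolysis 4 were higher and 4 lower at the unadjusted level. The 2 demethylases counted as higher were KDM7A (0.86) and KDM6B (0.39), with groups apart in both sets. Of the demethylases, KDM7A passed with quantile normalization, with a filter on dim probe sets and without repeated values, and KDM6B with that filter and without control 1B, both with higher values in GNE-140 arrays.

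**Figure D5:**
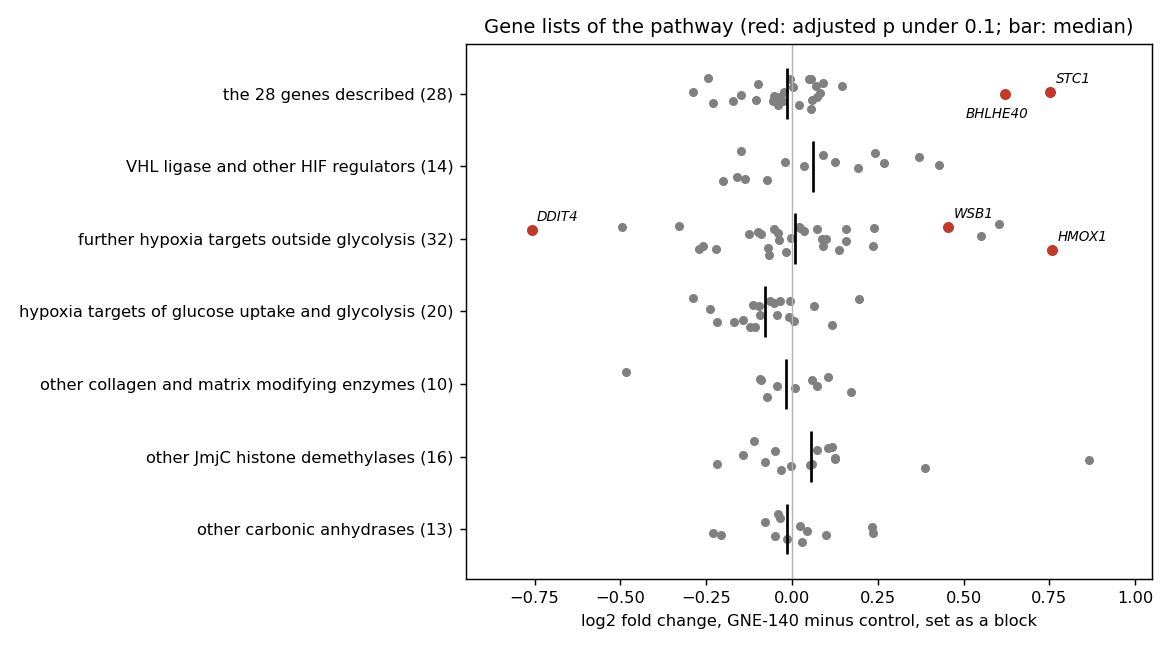
Log2 fold change of GNE-140 minus control (horizontal axis) of each gene in the 28 and in 6 lists of further pathway genes, with the number measured in brackets, red where the adjusted p was under 0.1 and a bar at the median. The 5 red points are STC1, BHLHE40, HMOX1 and WSB1 to the right and DDIT4 to the left, and the medians lie between -0.08 and 0.06.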

How the data were processed

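Total RNA of MDA-MB-231 cells was hybridised to 9 arrays. The authors deposited log2 signals of 53617 probe sets. Expression Console converted the scanner files, and the submitters' notes also name the Transcriptome Analysis Console. Software versions, summarization and normalization were not given in the sources used here, and the range of the signals gave the log2 scale. Repeated values in set 1 and the offset between the sets arose before deposit, and whether the sets were normalized together is not known. Precision is limited by the number of arrays and by signal over background, since arrays have no depth.

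Genes were named by the platform annotation from probe sets with 1 symbol, and the probe set with the highest mean over the 9 arrays stood for a gene (HIF1A had 2). The deposited values were fitted in R 4.3.3 with lmFit and eBayes of limma 3.58.1, with set as a block. Adjustment was by Benjamini and Hochberg's method across the 53617 probe sets. A gene passed at an adjusted p under 0.1. Each set alone and the interaction of set and treatment were fitted likewise. The code was tested on simulated data. The genes and lists were chosen with earlier results of these data known. Values of every array are given for genes that passed or had an unadjusted p under 0.05 and for HIF1A, EPAS1, ARNT, EGLN1, EGLN3, VHL and VEGFA, and of LOXL2 and CA12, which were chosen after their values were seen. Of the lists, genes that passed are named, together with some that did not pass, chosen after their values were seen. Letters shared between the groups (A, B) were not taken as pairs in the main fit, and the labels do not say whether they are.

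Alternatives were a model without the set, a block of set and letter, quantile normalization, median centring, a filter on dim probe sets, a variance trend, the mean of a gene's probe sets, a threshold of 0.05, each array left out, and, added after seeing the data, the removal of probe sets with repeated values. Promoter sequences are from RefSeq (GRCh38.p14).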

Additional observations from a re-analysis of the deposited data

How the results depend on the processing

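Of the 28 genes, 2 passed with the set as a block, both of which rose. Without a set term 0 passed, in a model that leaves the offset between the sets in the residual and in which no probe set passed. With set and letter as a replicate block 0 passed as well, again with no probe set passing. Arrays of the same letter did not deviate together (correlations of -0.152 to 0.03). This check is weak, since with 2 arrays per group in set 2 both letters must give the same correlation. Whether the letters pair the arrays is not stated by the labels and was not settled. With 1 array left out, 1 to 2 genes passed. The 2 passed under quantile normalization, median centring, the filter on dim probe sets (25 of the 28 genes kept), the variance trend, the mean of a gene's probe sets, a threshold of 0.05 and the removal of repeated values. No gene of the 28 fell past the threshold under any of these. STC1 and BHLHE40 kept their direction in all 18 alternatives, with log2 fold changes of 0.69 to 0.84 and 0.57 to 0.76. The filter, the variance trend, the threshold of 0.05 and the removal of repeated values could not change these fold changes. Nor could the mean of a gene's probe sets, since STC1 and BHLHE40 have 1 each. Their pass at 0.05 also follows from the adjusted p already given.

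Of the 105 further genes 3 passed (2 rose, 1 fell), against 0, 0 and 0 without a set term or with the replicate block and 5, 4 and 1 under quantile normalization, where NFIL3 (0.58, adjusted p = 0.048) and KDM7A (0.83, adjusted p = 0.082) joined. In alternatives added for these genes after seeing the data, 6 passed (5 rose, 1 fell) with the filter on dim probe sets, where NFIL3, KDM7A and KDM6B (0.39, adjusted p = 0.072) joined, 5 (4 rose, 1 fell) without repeated values, where NFIL3 and KDM7A joined, and 4 (3 rose, 1 fell) with the variance trend, where NFIL3 joined. With 1 array left out, 0 to 4 passed, of which 0 to 3 rose and 0 to 1 fell. In set 1 alone 0 to 1 of the 28 genes passed with 1 array left out (BHLHE41 without GNE-140 1A), and in set 2 alone and for the interaction 0 did.

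Genes with dim or repeated values, HIF3A, RORA, STC2 and P4HA2 among them, can show little in set 1, and no alternative to the deposited signals was tried from the scanner files.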
